A study of Homo sapiens with 3 samples.

Results

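The MLL-AF9 program studied here is a set of 10 genes that MLL-AF9 is known to keep active in leukemic cells: HOXA9 (P31269), HOXA10 (P31260), MEIS1 (O00470), PBX3 (P40426), MYB (P10242), MYC (P01106), MEF2C (Q06413), CDK6 (Q00534), JMJD1C (Q15652) and EYA1 (Q99502). The rule for choosing them uses no count and rests on general knowledge of the fusion, although earlier results of these data were known at that time. Each member was found by the UniProt accession of its protein. All 10 have a row among the 213543 features of the count table, 73321 of which are named by an accession and 140222 by a transcript identifier. RNA-seq was performed on THP-1, an established human monocytic leukemia line that carries the MLL-AF9 fusion. The 3 libraries are untreated cells at 0 h, cells after 8 h with 0.2 µM GSK-LSD1 and cells after 24 h with 0.2 µM GSK-LSD1. GSK-LSD1 is an inhibitor of the histone demethylase LSD1, and the comparison asks what happens to the program while LSD1 inhibition drives these cells towards myeloid differentiation. Since each time point is 1 library of 1 cell line, a difference between time points has no replicate check. There is no untreated library at 8 h or 24 h, so effects of GSK-LSD1 and of time in culture cannot be told apart.

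MLL-AF9 joins the DNA-binding front part of the MLL protein (gene KMT2A) to the end of AF9 (gene MLLT3). The AF9 part brings in elongation factors and the histone methyltransferase DOT1L, and genes bound by the fusion stay transcribed when a normal monocyte precursor would switch them off. HOXA9 and its cofactors MEIS1 and PBX3 are the best known of these genes, and they hold the cells in a self-renewing state.

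The MLL part of the fusion keeps a CXXC domain, which binds CpG dinucleotides that carry no methyl group. For that reason the 250 bases before the transcription start are shown for CDK6, the member with nearly all the counts, and for HOXA9, the member best known as a target. CpG dinucleotides are in capitals, sequences are from RefSeq on GRCh38.p14 and are written 5′ to 3′ on the strand of the gene. Such windows were held for 8 of the 10 members, in 18 windows, and 11 of these (61.1%) hold more CpG than the median of 11 over all 35116 windows, of which 48.5% do so. The first CDK6 window (chr7:92836574-92836823, reverse strand) holds 30 CpG, a number reached by 12.4% of all windows. The second (chr7:92833960-92834209, reverse strand) holds 23, reached by 25.8%. The HOXA9 window (chr7:27165538-27165787, reverse strand) holds 20, reached by 32.4%, and it also holds CACGTG, the E-box bound by MYC and its partners. That motif, which reads the same on both strands, was in 2 of the 18 windows, 1 of HOXA9 and 1 of JMJD1C, and in 6.34% of all windows. A match describes the letters only and is no evidence of binding in THP-1.
CDK6 upstream of the first start: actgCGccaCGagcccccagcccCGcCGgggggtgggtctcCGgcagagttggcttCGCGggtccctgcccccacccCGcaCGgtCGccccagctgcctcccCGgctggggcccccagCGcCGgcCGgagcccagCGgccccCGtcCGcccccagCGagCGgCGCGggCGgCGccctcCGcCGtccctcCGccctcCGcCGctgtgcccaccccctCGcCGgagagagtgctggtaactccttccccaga
CDK6 upstream of the second start: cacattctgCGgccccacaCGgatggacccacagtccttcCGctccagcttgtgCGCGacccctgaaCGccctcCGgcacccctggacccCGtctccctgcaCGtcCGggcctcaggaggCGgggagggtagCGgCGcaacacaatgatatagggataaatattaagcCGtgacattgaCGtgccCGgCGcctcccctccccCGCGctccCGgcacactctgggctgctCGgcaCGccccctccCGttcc
HOXA9 upstream of the start: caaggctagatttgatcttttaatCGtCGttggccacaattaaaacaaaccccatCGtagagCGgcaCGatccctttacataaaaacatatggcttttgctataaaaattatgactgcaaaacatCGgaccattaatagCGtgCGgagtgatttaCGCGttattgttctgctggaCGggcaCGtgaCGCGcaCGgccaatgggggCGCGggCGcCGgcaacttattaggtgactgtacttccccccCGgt

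The 3 libraries held 1475938, 1310912 and 1444011 counts at 0, 8 and 24 h. A row at 0 therefore allows up to 3 counts, which is 1.95, 2.34 and 2.11 CPM (counts scaled to a common library size). Such limits, and the intervals given here, cover counting error only, because the reads carry no molecular identifiers and copies of 1 molecule may each be counted. Of all features, 50694 had a count and 9609 reached 10 counts in at least 1 library, the minimum used for counts of changed features. Markers of the labelled cell type were checked first. Of 14 myelomonocytic markers, 12 had a count in any library, and the list summed to 6048, 6232 and 7390 unscaled counts at 0, 8 and 24 h. CD33 and CSF1R were listed at 0 throughout, and CD14 and CD68 at 0 h. Most of the 0 h counts were those of ELANE (3037) and CEBPA (1848), and the rise at 24 h lay mainly in LYZ and ITGAM. Of 8 lymphoid, erythroid and epithelial markers, 7 were listed at 0 in every library, and the list summed to 1, 0 and 1 counts. CD86, the differentiation marker of this treatment, held 1 count at 0 h, 19 at 8 h and 37 at 24 h. KDM1A, the gene of LSD1, held 1, 0 and 1 counts, too few to follow. A row at 0 does not show that a gene is silent, since CDK4 and LDHA, used by nearly every dividing cell, were listed at 0 too.

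Counts of the program lay almost wholly in 1 gene. Of the members' counts, CDK6 held 99.4% before treatment, 99.4% after 8 h and 98.7% after 24 h. Summed over the 10 members, the counts were 4999 before treatment, 3857 after 8 h and 3265 after 24 h. Without CDK6 the other 9 members together held 32, 22 and 41 counts. Of the 10 members, 7 had a count in any library, and 2 of them, CDK6 and HOXA10, reached 10 counts in a library. Gene lengths are not part of the table, so these numbers compare counts and not levels between genes. The plot of counts by time shows the gap between CDK6 and the rest.

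**Figure D1:**
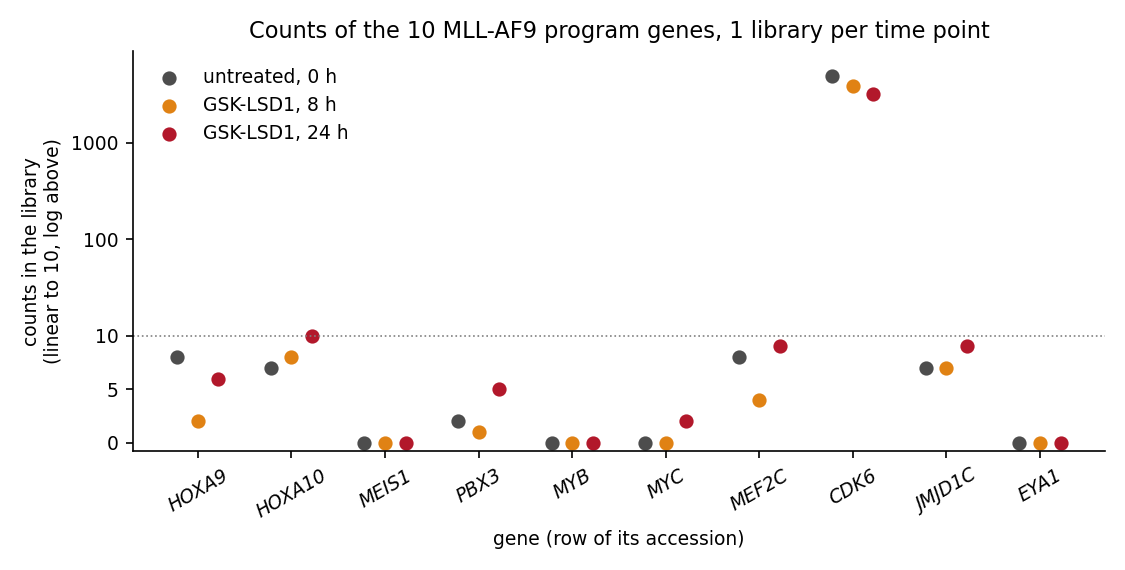
Counts of the accession row of each of the 10 members (horizontal axis) in the untreated library at 0 h and the GSK-LSD1 libraries at 8 h and 24 h, 1 point per library, on a vertical axis that is linear to 10 counts and logarithmic above. CDK6 lies between 3224 and 4967 counts, no other member is above 10, and MEIS1, MYB and EYA1 are at 0 in all 3 libraries.

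CDK6 is a kinase that pairs with D-type cyclins, phosphorylates the retinoblastoma protein and so lets cells leave G1. It lies on the reverse strand of chromosome 7 of GRCh38 (92604921 to 92836573), and GENCODE v44 gives it 1 distinct coding sequence, shared by 2 coding transcripts. The CDK6 row held 4967, 3835 and 3224 counts at 0, 8 and 24 h. After scaling of the libraries this is 3233, 2995 and 2270 CPM. The count was highest before treatment and lowest at 24 h. As a share of all counts, CDK6 took 0.337% before treatment (95% Wilson limits 0.327% and 0.346%), 0.293% after 8 h (0.283% and 0.302%) and 0.223% after 24 h (0.216% and 0.231%). These 3 intervals do not overlap, but at this depth a small difference is enough, and the same was not counted over other features. The shares use total counts. Under that scaling the median log2 fold change of all features was -0.10 at 8 h and -0.09 at 24 h versus 0 h. By number of counts it ranked 16th of all features at 0 h, 28th at 8 h and 31st at 24 h.

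Between libraries, the log2 ratio of CDK6 was -0.11 at 8 h versus 0 h, with an exact 95% counting interval of -0.17 to -0.05, which is 7.36% lower. At 24 h versus 0 h it was -0.51 (-0.57 to -0.45), or 29.8% lower. At 24 h versus 8 h it was -0.40 (-0.47 to -0.33), or 24.2% lower. The larger step thus lay between the 8 h and the 24 h library, although under a loess correction for mean expression the steps were close, -0.32 and then -0.35. The interval at 8 h lies close to 0, and the value there moved to -0.20 when libraries were scaled by total counts and to -0.32 under the loess correction, both lower than 0. In bulk RNA, fewer cells with CDK6 transcripts and less CDK6 RNA per cell cannot be told apart. Of the 10 tested myelomonocytic markers, 7 had an interval above 0 at 8 h and 6 at 24 h, and 0 had one below 0 at either time, while 4 intervals at 24 h included 0. CD86 is among those above 0 at both times, but it reached 10 counts only in the treated libraries, so the filter favoured a rise. FCGR1A passed through the 8 h library alone, and its intervals against 0 h included 0. Of all tested features, 11.7% and 13.0% lay above 0 at these times, and 9.71% and 12.6% below. With total counts, 6 lay above and 1 below 0 at 8 h, and 5 above and 0 below at 24 h. Among them LYZ went from 655 counts at 0 h to 747 at 8 h and 1773 at 24 h, and ITGAM from 87 to 120 and 339. CEBPB went the other way, from 108 to 70 and 81, with ratios of -0.36 and -0.30 whose intervals include 0. The part of these markers in the CDK6 difference was not tested.

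With this many counts a small difference is outside the counting interval, so CDK6 was also placed among the 212 features that had at least 1000 counts at 0 h. Their median log2 ratio at 8 h versus 0 h was 0.10 (quartiles -0.05 to 0.24), and 36 of them (17.0%), CDK6 included, were as low as CDK6 or lower. At 24 h versus 0 h the median was 0.04 (quartiles -0.16 to 0.25), and 8 of them (3.77%) were as low or lower. At 24 h versus 8 h the median was -0.07, and 4 of them (1.89%) were as low or lower. CDK6 was thus among the lowest of the well-counted features at 24 h and below the first quartile at 8 h. This description, with its minimum of 1000 counts, was chosen after the values were seen and carries no test. With a minimum of 500 counts (565 features) the shares were 21.8%, 3.54% and 1.77%, and with 2000 counts (59 features) 11.9%, 3.39% and 3.39%.

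**Figure D2:**
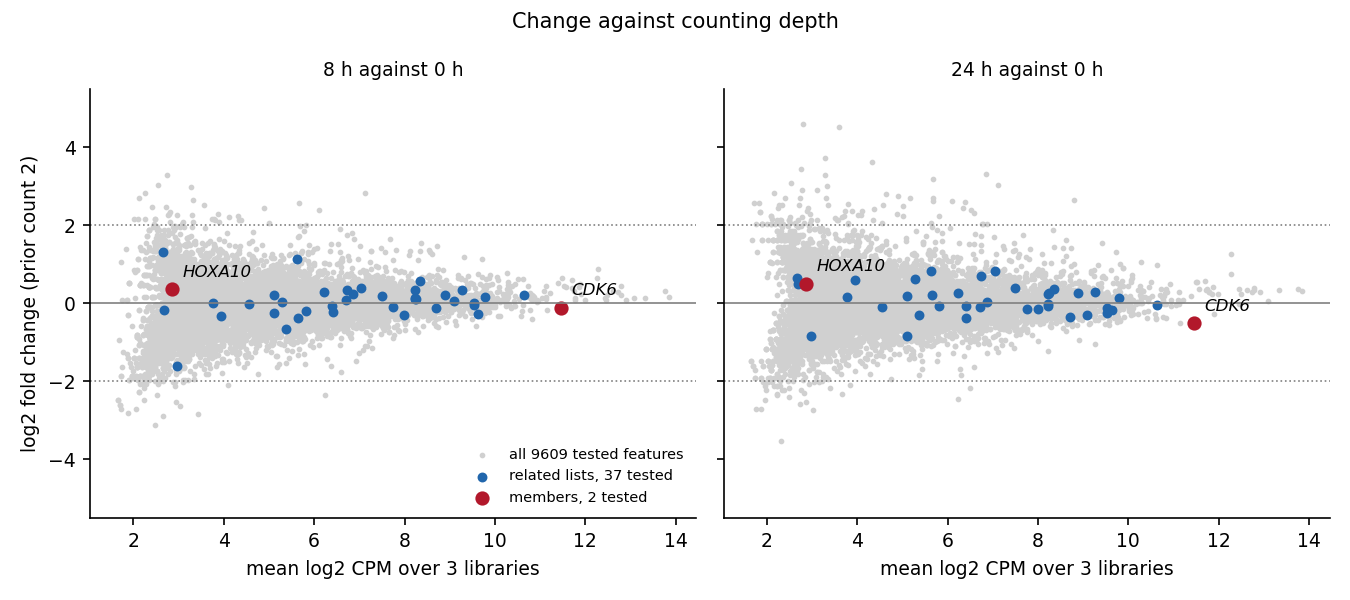
Log2 fold change (vertical axis, prior count of 2) against mean log2 CPM over the 3 libraries (horizontal axis) for all 9609 tested features in grey, 37 tested genes of related lists in blue and the 2 tested members in red, at 8 h and at 24 h versus 0 h; dotted lines mark 2 and -2. CDK6 lies at the deep end, at -0.11 and -0.51, and HOXA10 at the shallow end, where grey points spread widely.

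Next, the homeobox members were examined. HOXA9 is the homeodomain transcription factor at the centre of the program, and HOXA10 is its neighbour in the HOXA cluster with a like role in early blood cells. HOXA9 (chromosome 7, reverse strand, 27162438 to 27175180) held 8, 2 and 6 counts at 0, 8 and 24 h. HOXA10 (chromosome 7, reverse strand, 27170605 to 27180261) held 7, 8 and 10 counts. HOXA9 was lowest at 8 h, and HOXA10 passed the minimum of 10 counts through the 24 h library alone, where it was highest. The HOXA9 log2 ratio was -1.74 at 8 h versus 0 h (-5.01 to 0.59) and -0.30 at 24 h versus 0 h (-2.11 to 1.41). For HOXA10 it was 0.46 (-1.20 to 2.15) and 0.63 (-0.91 to 2.26). Each of these intervals includes 0, so neither a rise nor a fall of HOXA9 or HOXA10 was detectable at this depth. The HOXA9 interval at 24 h allows values from a fall to 0.232 of the untreated level to a rise to 2.67 times that level.

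HOXA9 and HOXA10 also had the largest share of exon bases covered by other genes among the 10 members. The spans of HOXA9 and HOXA10 overlap over 4576 bases (27170605 to 27175180), although they share 0 exon bases. Exons of other genes, among them HOXA10-AS on the other strand, MIR196B and a readthrough gene on the same strand, cover 27.0% of the exon bases of HOXA9 and 26.3% of those of HOXA10. The strand setting and the handling of shared reads are not stated in the sources used here, so the counts of both rows are uncertain. For CDK6 the covered share is 0.703%, all under CDK6-AS1. For the remaining members it runs from 0% in PBX3 to 13.3% in MEIS1.

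MEIS1 and PBX3 encode homeodomain proteins of the TALE class, which bind DNA together with HOXA9. MEIS1 (chromosome 2, forward strand, 66433452 to 66573869) was listed at 0 in all 3 libraries. PBX3 (chromosome 9, forward strand, 125747345 to 125967377) held 2, 1 and 5 counts at 0, 8 and 24 h. Its log2 ratio at 24 h versus 0 h was 1.44, with an interval from -1.18 to 4.83, and no ratio is given at 8 h, where both counts were 3 or fewer. Neither cofactor could be followed through its accession row.

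MYB and MYC are transcription factors that drive the growth of blood progenitors, and MYC acts with MAX at E-boxes. MYB (chromosome 6, forward strand, 135181308 to 135219173) was listed at 0 in every library. MYC (chromosome 8, forward strand, 127735434 to 127742951) held 0, 0 and 2 counts at 0, 8 and 24 h. At 2 counts or fewer no fold is given for MYC, and the same holds for MYB.

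MEF2C is a MADS-box transcription factor of myeloid progenitors, and JMJD1C is a Jumonji-domain protein of the KDM3 family that acts as a coactivator in leukemic cells. MEF2C (chromosome 5, reverse strand, 88717117 to 88904257) held 8, 4 and 9 counts at 0, 8 and 24 h. JMJD1C (chromosome 10, reverse strand, 63167221 to 63521850) held 7, 7 and 9 counts. The counts of both genes are too few to show either a change or its absence. The log2 ratio of MEF2C was -0.74 at 8 h (-2.92 to 1.16) and 0.28 at 24 h versus 0 h (-1.26 to 1.86). That of JMJD1C was 0.26 (-1.48 to 2.0) and 0.48 (-1.12 to 2.14), and all 4 intervals include 0. EYA1, a transcriptional coactivator and phosphatase (chromosome 8, reverse strand, 71197433 to 71592025), was listed at 0 throughout.

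**Figure D3:**
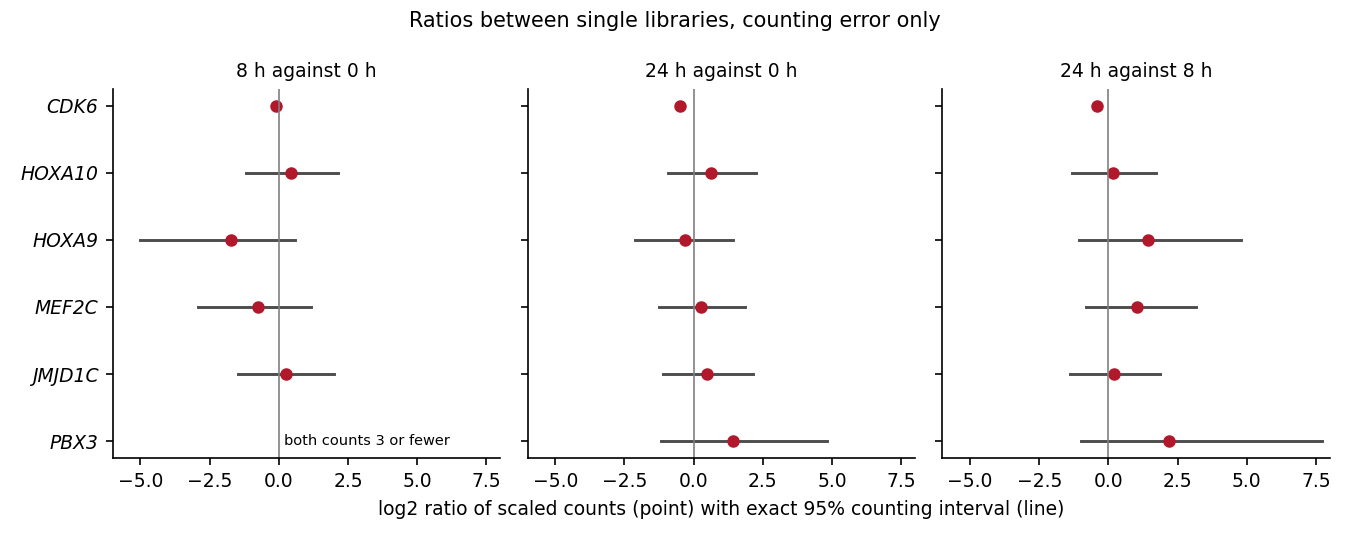
Log2 ratio of scaled counts between single libraries (points, horizontal axis) with its exact 95% counting interval (lines) for the 6 members with a ratio, in 3 comparisons; PBX3 has none at 8 h versus 0 h. The CDK6 interval is narrower than its point and lies below 0 in each panel, and every other interval crosses 0.

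Counted over the program, 0 members passed a log2 fold change of 2 in any comparison, where 0.708% of all tested features did so at 8 h versus 0 h, 1.31% at 24 h versus 0 h and 0.260% at 24 h versus 8 h. Past a log2 fold change of 1, again 0 members were found, against 10.5%, 11.8% and 5.99% of all features. The counting interval lay below 0 for 1 member, CDK6, in each comparison, and for 9.71%, 12.6% and 5.58% of all features. It lay above 0 for 0 members, against 11.7%, 13.0% and 4.87%. With 2 members tested, these counts cannot be set apart from the background shares. The shares depend on the scaling: intervals above 0 made up 54.6% of those that exclude 0 at 8 h and 50.7% at 24 h versus 0 h, and with total counts 37.5% and 38.4%. At 24 h versus 8 h they made up 46.6%, and 32.3% with factors taken over all features. The median log2 fold change of the 2 tested members was 0.12 at 8 h versus 0 h, -0.0041 at 24 h versus 0 h and -0.13 at 24 h versus 8 h, beside -0.01, -0.01 and 0.0007 over all features. The 2 are CDK6 and HOXA10, and HOXA10 passed the minimum only through the 24 h library, where it was highest. The filter thus favours a higher value of HOXA10 at 24 h, and this median is no summary of the program.

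The members differ widely in how many coding sequences their genes have. GENCODE v44 gives 1 distinct coding sequence for CDK6, 2 for HOXA10, 3 for JMJD1C, 4 for HOXA9, 6 for MEIS1 and for PBX3, 8 for MYC, 10 for EYA1, 13 for MYB and 27 for MEF2C. MEIS1, MYB and EYA1, which were at 0, each have 6 or more, but MEF2C, which has the most, held 21 counts in all, more than the 16 of HOXA9. The relation was also described over the 105 genes of all lists with a row. Of 16 genes with 1 coding sequence, 10 (62.5%) had 10 counts or more in a library and 1 was at 0 in every library. Of 45 genes with 2 to 4 coding sequences, 25 (55.6%) had 10 counts or more and 10 were at 0. Of 44 genes with 5 or more, 14 (31.8%) had 10 counts or more and 18 were at 0. The median count summed over libraries was 306.5, 32 and 2 in these 3 groups. A row named by 1 accession may thus hold only part of a gene's reads, and the part this plays in the low counts of the members was not tested.

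**Figure D4:**
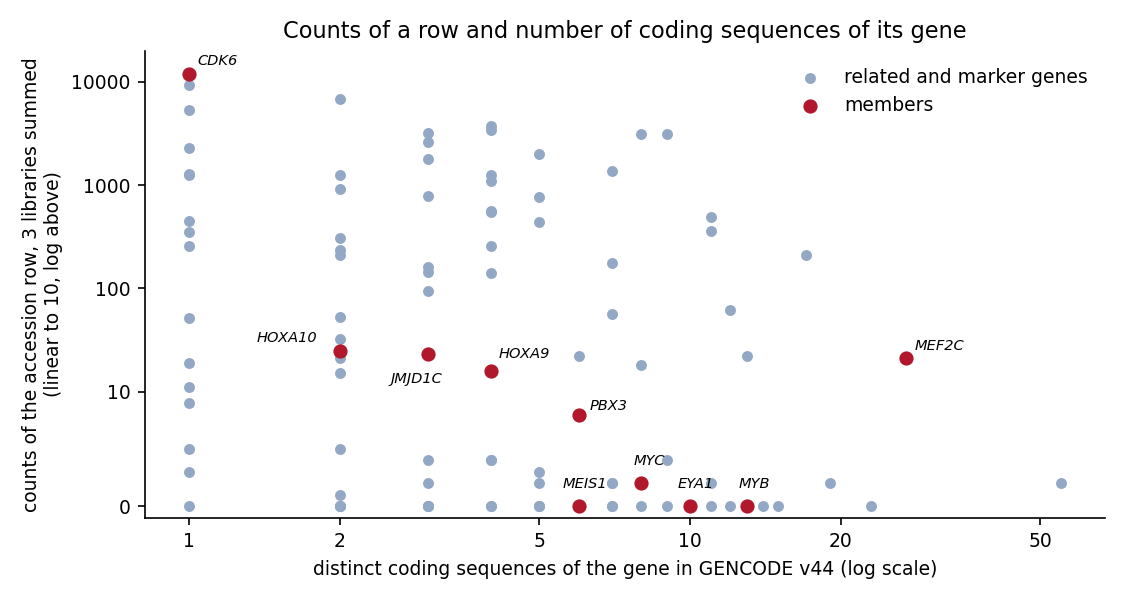
Counts of the accession row summed over the 3 libraries (vertical axis, linear to 10 and logarithmic above) against the number of distinct coding sequences of its gene in GENCODE v44 (horizontal axis, logarithmic), for members in red and other listed genes in blue. CDK6 has 1 coding sequence and the highest count, MEIS1, EYA1 and MYB, with 6, 10 and 13, are at 0, and MEF2C, with 27, is at 21.

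None of the coding transcripts of the 10 genes has a feature of its own, but other transcripts of these genes do. These held at most 10 counts per gene in a library. PBX3 was the exception. Its 6 transcript features, 5 of them with a count, summed to 51, 38 and 52 counts at 0, 8 and 24 h, far above the 2, 1 and 5 counts of the PBX3 accession row. Most came from a retained-intron transcript of 607 bp in 1 exon (ENST00000492314, chromosome 9, 125748931 to 125749537), which held 31, 29 and 32 counts. For the sum of the PBX3 transcripts the log2 ratio was -0.16 at 8 h (-0.81 to 0.47) and 0.14 at 24 h versus 0 h (-0.44 to 0.73). The other counts lay in transcripts with no defined coding sequence. PBX3 reads were therefore found before and after treatment, and both intervals include 0. Transcript features held 7, 2 and 4 counts in HOXA9, 4, 2 and 2 in HOXA10 and 8, 3 and 4 in CDK6. They held 10, 9 and 8 counts in MEF2C and 2, 2 and 6 in JMJD1C. For MEF2C this is as much as its accession row, with 8, 4 and 9. With these features added, its ratio at 8 h versus 0 h was -0.21 and not -0.74. All transcript features of MEIS1 (11), MYB (2), MYC (1) and EYA1 (8) were at 0.

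Next, 75 related genes in 6 lists were followed, since they work with the members or resemble them. Of these, 72 have a row and 37 were tested, with a median of 486 summed counts against 92 over all tested features. None passed a log2 fold change of 2 (0 of 37). The counting interval lay above 0 for 9 genes at 8 h and 11 at 24 h versus 0 h, and below 0 for 4 and 6. Above 0 these are 24.3% and 29.7% of the 37 genes, beside 11.7% and 13.0% of all tested features, and below 0 they are 10.8% and 16.2%, beside 9.71% and 12.6%. With libraries scaled by total counts the split was 5 above and 6 below at 8 h, and 8 above and 10 below at 24 h, so the 37 genes as 1 set had no direction that held under both scalings. Higher-count genes exclude 0 more easily, and these genes hold more counts than the median feature.

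Paralogs of the members gave 8 tested genes of 17, with 3 intervals above and 0 below 0 at 8 h, and 2 above and 0 below at 24 h. With total counts these were 1 above and 0 below, and 1 above and 2 below. The 1 above at 8 h was MYBL2, a relative of MYB, with 2351, 2264 and 2131 counts at 0, 8 and 24 h. Its log2 ratio was 0.21 at 8 h (0.12 to 0.29), above 0 under every scaling, and -0.03 at 24 h (-0.11 to 0.06). With total counts the MYBL2 interval at 24 h lay below 0. MYCL (P12524), the MYC relative known from small-cell lung cancer, held 151, 166 and 250 counts at 0, 8 and 24 h. Its log2 ratio was 0.40 at 8 h (0.07 to 0.73) and 0.84 at 24 h (0.54 to 1.14), and with total counts the interval at 8 h included 0. MYCL was thus higher at 24 h. The MYC row, with 2 counts there, is too low to give a level of MYC to set beside it. MEF2D (Q14814), a relative of MEF2C, held 1257, 1182 and 1287 counts, with ratios of 0.17 and 0.15 whose intervals included 0 with total counts. CDK4, the closest relative of CDK6, was listed at 0.

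Among 16 cofactors of the fusion, 13 were tested, with 2 intervals above and 1 below 0 at 8 h and 4 above and 3 below at 24 h. With total counts the split turned, to 1 above and 3 below at 8 h and 2 above and 5 below at 24 h. KMT2A, the gene of MLL, held 78, 50 and 84 counts, and MLLT3, the gene of AF9, held 7, 5 and 10. For both, the intervals against 0 h included 0. RBBP5 (Q15291), a core subunit of MLL complexes, held 401, 423 and 441 counts, with ratios of 0.34 (0.14 to 0.54) and 0.25 (0.05 to 0.45). It was higher in both treated libraries, although with total counts its interval at 24 h included 0. At 24 h the ratio of DOT1L was 0.39 (0.14 to 0.64) and that of ELL2 was -0.89 (-1.54 to -0.26). Both intervals excluded 0 under every scaling at 24 h and included 0 at 8 h. WDR5 also lay below 0 under every scaling at 24 h, with a ratio of -0.34 (-0.51 to -0.18).

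Of 13 other reported targets of MLL-AF9, 5 were tested, with 1 interval above and 1 below 0 at 8 h and 1 above and 2 below at 24 h. With total counts, 0 lay above and 1 below at 8 h. BCL2 (P10415), the inhibitor of apoptosis, held 1351, 939 and 1103 counts at 0, 8 and 24 h. Its log2 ratio was -0.26 at 8 h (-0.38 to -0.14) and -0.18 at 24 h (-0.30 to -0.06), so like CDK6 it was lower in both treated libraries. SOX4 (Q06945), a transcription factor of progenitor cells, held 126, 135 and 190 counts, with ratios of 0.36 (0.0013 to 0.72) and 0.71 (0.37 to 1.04). It was higher at 24 h, and with total counts its interval at 8 h included 0. BCL2 and SOX4 thus lay on opposite sides of 0 in both treated libraries.

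The partners of MYC, MYB and CDK6 gave 7 tested genes of 12 with a row, with 3 intervals above and 1 below 0 at 8 h and 4 above and 0 below at 24 h, and these counts were the same with total counts. MNT (Q99583), a repressor that competes with MYC for MAX, held 46, 87 and 77 counts at 0, 8 and 24 h. Its log2 ratio was 1.18 at 8 h (0.65 to 1.73) and 0.86 at 24 h (0.31 to 1.42). CREBBP (Q92793) and EP300 (Q09472) are acetyltransferases that MYB recruits, and both were higher in the treated libraries. CREBBP held 401, 502 and 477 counts, with ratios of 0.59 (0.39 to 0.78) and 0.36 (0.17 to 0.56). EP300 held 818, 860 and 919, with ratios of 0.34 (0.20 to 0.47) and 0.28 (0.14 to 0.42). Of the D-type cyclins that activate CDK6, CCND2 (P30279) held 19, 4 and 9 counts and CCND3 (P30281) held 1, 1 and 0, while CCND1 was not analysed here. The CCND2 ratio was -1.99 at 8 h (-4.0 to -0.40) and -0.96 at 24 h (-2.29 to 0.25), and CCND2 alone is the partner below 0 at 8 h. It reached 10 counts through the 0 h library only, where it was highest, so it had to be lower elsewhere, and these cyclins are named here after their values were seen.

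The other HOXA genes and the known MYC targets held no gene past the naming rule in both treated libraries. Of 8 other HOXA genes with a row, 1 was tested, HOXA13 (P31271), a gene of the posterior end of the cluster, with 447, 400 and 410 counts and ratios of 0.10 (-0.10 to 0.30) and -0.01 (-0.21 to 0.19). HOXA5 (P20719) held 9, 4 and 6 counts. Of 6 known MYC targets, 3 were tested, with 0 intervals above and 1 below 0 in each comparison with 0 h. At 8 h this was NCL (P19338), a nucleolar protein, with 77, 40 and 58 counts and a ratio of -0.68 (-1.27 to -0.11), and at 24 h it was ODC1. ODC1 (P11926), the first enzyme of polyamine synthesis, held 881, 762 and 663 counts, with ratios of 0.05 (-0.09 to 0.19) and -0.30 (-0.44 to -0.15). NPM1 (P06748), also nucleolar, held 166, 163 and 157, with ratios of 0.24 and 0.03.

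**Figure D5:**
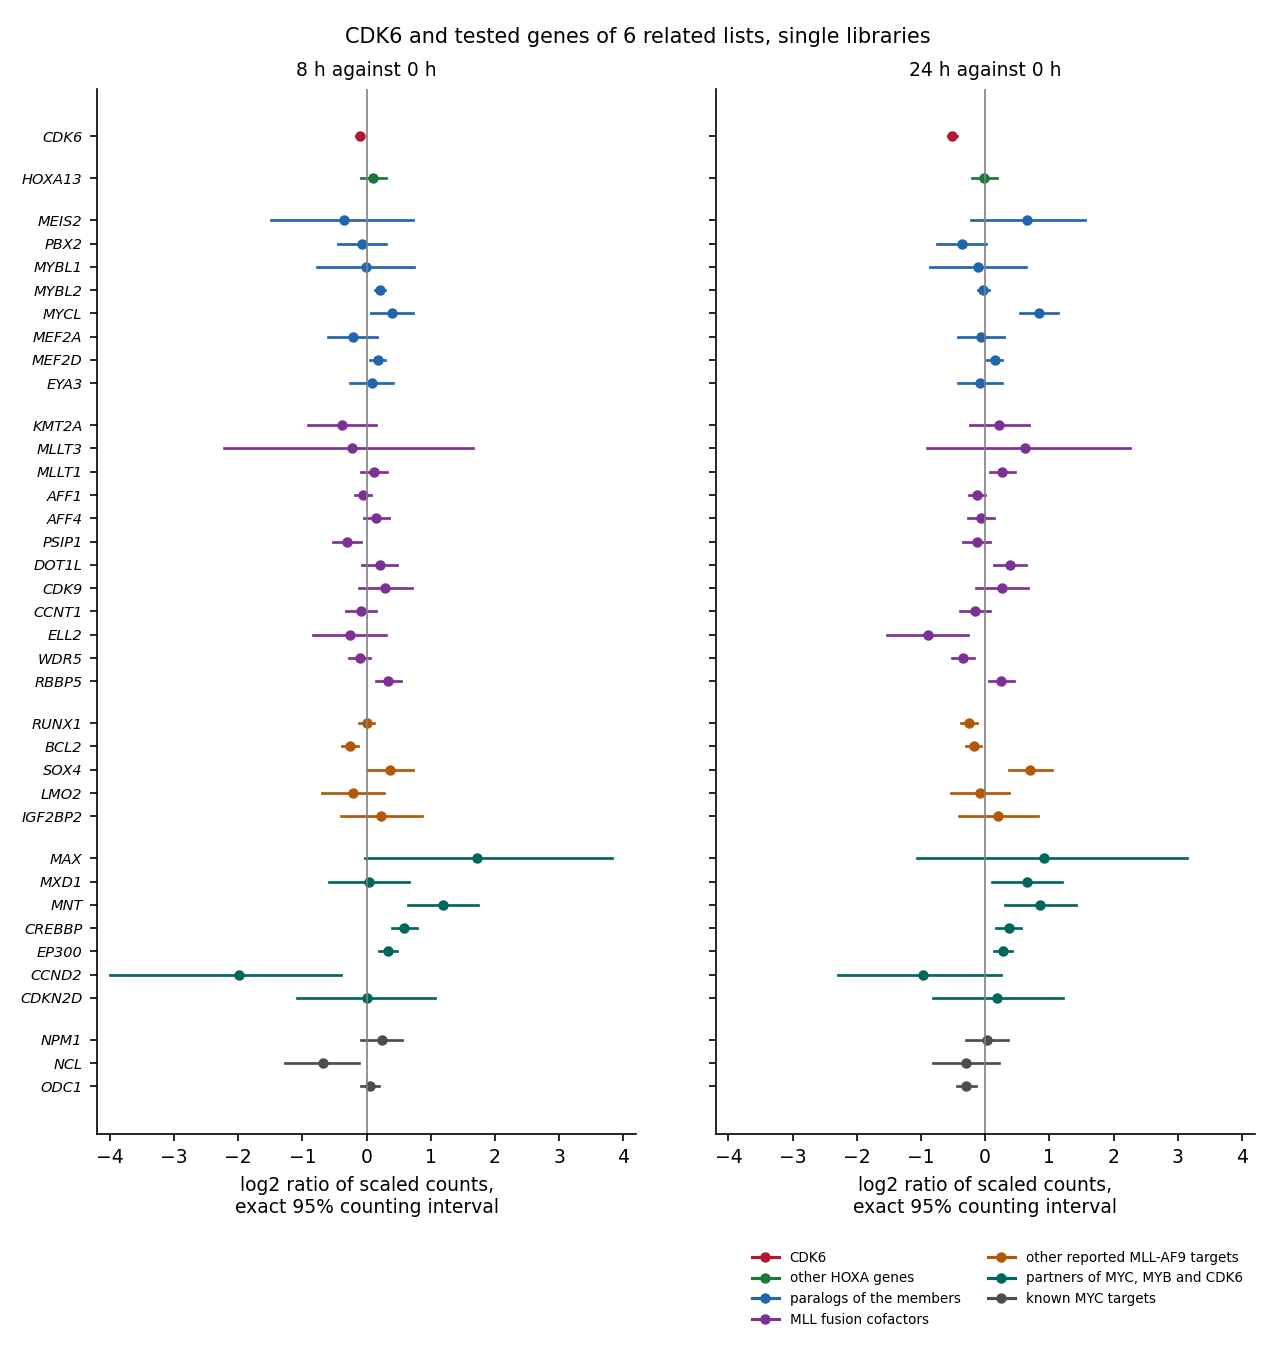
Log2 ratio of scaled counts (points, horizontal axis) with exact 95% counting intervals (lines) for CDK6 and tested genes of the 6 related lists, coloured by list, at 8 h and at 24 h versus 0 h. At 24 h CDK6 lies at -0.51 with a narrow interval, and ELL2 at -0.89 and CCND2 at -0.96 lie lower with wide ones, that of CCND2 crossing 0. MNT at 0.86, MYCL at 0.84 and SOX4 at 0.71 lie to the right, and most other intervals cross or lie near 0.

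The genes whose pair of log2 fold changes (8 h and 24 h versus 0 h) lay nearest to that of CDK6, by Euclidean distance among the 37 related genes over 3 libraries, were PBX2 at 0.154, WDR5 at 0.168 and ODC1 at 0.269. PBX2, a relative of PBX3, held 141, 112 and 101 counts at 0, 8 and 24 h. WDR5, a subunit of MLL complexes, held 708, 547 and 516. All 3 were lower at 24 h than at 0 h in scaled counts. The PBX2 interval at 24 h, -0.75 to 0.01, includes 0, but with total counts it lies below 0. Nearest to HOXA10 were SOX4 at 0.195, DOT1L at 0.197 and EP300 at 0.223, but with 7 to 10 counts the position of HOXA10 is itself uncertain.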

How the data were processed

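THP-1 cells were sequenced (RNA-seq) untreated and after GSK-LSD1 for 8 h or 24 h. Reads were aligned to hg38 by the authors in the Seq2science pipeline (the submitters' processing notes name fastp and STAR), and raw, unnormalized read counts per feature were deposited. The tool used for counting, its annotation and strand setting, and its treatment of shared reads are not given in the sources used here. Libraries were grouped by their labels, 1 per time point, so no p-value was computed.

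The members and lists were chosen with earlier results of these data known. The count table does not pair accessions with genes: members follow the accessions of the rule, and accessions of related genes and markers were written from UniProt knowledge. Library sizes were scaled with TMM (edgeR 4.0.16, R 4.3.3) over the 9609 features that reached 10 counts in any library, with factors of 1.04, 0.977 and 0.984 at 0 h, 8 h and 24 h. Log2 fold changes used a prior count of 2 and are smaller than ratios for low counts. Ratios used no prior count, with exact (Clopper-Pearson) 95% intervals of the share of both counts. Counts of 1 to 3 were used as they are, which differs from the planned bound against 3 counts, and no fold is given where both counts were 3 or fewer. Gene positions and overlaps came from GENCODE v44.

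The rule for naming genes took all 10 members and, of each of the 6 related lists, genes with at least 50 counts in a library whose interval excluded 0 in the same direction at 8 h and 24 h, or else up to 2 with the most counts. It also took the 3 genes nearest to each of the 2 members with the most counts, transcripts of the members' genes, KDM1A and CD86. Genes outside it (KMT2A, MLLT3, ELL2, CDK4, LDHA, MYBL2, CCND2, CCND3, NCL, LYZ, ITGAM, ELANE, CEBPA, CEBPB, CD14, CD68, FCGR1A, CD33 and CSF1R) were chosen after their values were seen. A gene that the rule names is not reported here. On simulated counts for 24 h against 0 h (9609 features), 200 of 200 features with a log2 change of 3 were recovered past 2, and 9 of 9409 unchanged features passed it. The changed features were drawn only from those expected to hold at least 50 counts, and only counting noise was simulated. This result therefore does not cover the members with 10 counts or fewer, or spread between cultures. It does not cover CDK6 either, whose change was far smaller than the simulated one. Alternatives were DESeq2 1.42.0 size factors, total counts, other filters, prior counts and levels, a loess correction, transcript features added to the accession row, and, chosen after seeing the data, TMM over all features and the bound of 3 counts. Steps outside R used scipy 1.17.1, statsmodels 0.14.6, pandas 2.3.3 and numpy 2.4.6 (Python 3.11.15).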

Additional observations from a re-analysis of the deposited data

How the results depend on the processing

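CDK6 stayed lower in every comparison under every alternative run. Its log2 ratio moved beyond the counting interval to -0.20 at 8 h and -0.59 at 24 h versus 0 h with total counts, and to -0.32 and -0.67 with the loess correction, and at 24 h versus 8 h it stayed within the interval. The median of the tested members rests on 2 genes and its sign does not hold: at 8 h versus 0 h it was -0.11 with at least 50 counts (1 member) and -0.11 with no filter (7 members). At 24 h versus 0 h it was 0.0014 with DESeq2 size factors, 0.040 with a prior count of 0.5 and 0.38 with no filter, and at 24 h versus 8 h it was 0.77 with no filter. With no filter, 1 member passed a log2 fold change of 1 at 8 h versus 0 h and 1 at 24 h versus 8 h. For members other than CDK6, 77 of 77 alternative values stayed within the counting interval, which says little at these depths. With total counts the median of all features was -0.10 at 8 h and -0.09 at 24 h versus 0 h. No paired analysis was possible because each time point is 1 library, and for the same reason no library could be left out.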
